A study of Mus musculus with 8 samples.

Results

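The expression of 10 genes, 7 annexins (Anxa1 to Anxa7) and 3 S100 genes whose proteins bind annexins (S100a6, S100a10 and S100a11), was examined in R1 mouse embryonic stem cells (ESCs) before and after differentiation with retinoic acid (RA). The members were chosen by gene symbol from the gene lists of the count tables, and all 10 were found among the 24421 genes listed. Each was read in both differentiation states and with both Oxford Nanopore Technologies (ONT) kits. Undiff cells were R1 ESCs, which the study's methods describe as kept in growth medium with leukaemia inhibitory factor. The labels, by contrast, name embryoid bodies as the tissue of every sample, Undiff included. Day4 samples were embryoid bodies (aggregates of ESCs in suspension) formed from R1 cells over 4 days without that factor and then exposed to RA for another 4 days. The RA concentration is 2 µM in the design text and in the methods, whereas the treatment label gives the same figure in mM. There were 4 groups with 2 replicates each, named here Direct RNA Undiff, Direct RNA Day4, cDNA Undiff and cDNA Day4. The replicates were, per the methods, grown and treated separately, and the study used RNA from the same experiment with both kits, so that the platforms are not independent biological repeats. All samples come from 1 cell line, and no sample of embryoid bodies without RA was analysed here, so that aggregation, withdrawal of the factor, time and RA cannot be told apart.

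Annexins are proteins that bind acidic phospholipids of membranes when calcium is present, and they take part in membrane repair, vesicle fusion and exocytosis. S100 proteins are small calcium-binding proteins that form dimers and dock onto target proteins. Several of those targets are annexins: a dimer of S100A10 joins 2 ANXA2 chains into a tetramer beneath the plasma membrane, S100A11 binds the N-terminal tail of ANXA1, and S100A6 binds ANXA2 and ANXA11 among others. RA drives aggregated ESCs out of pluripotency, and the cells that arise differ widely in their membrane and secretory proteins.

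Reads assigned to genes ranged from 283461 to 907489 per Direct RNA library and from 948657 to 2088592 per cDNA library. Levels are given as CPM, reads per 1000000 reads on genes. A count of 3 reads, the upper limit that a count of 0 allows, corresponded to between 1.44 and 10.6 CPM. The 10 members together held between 0.0955% and 0.206% of the reads on genes. In the marker lists, 8 of 8 genes of pluripotent cells were lower at Day4 on both platforms. Their summed level fell from between 11482 and 24601 CPM in the 4 Undiff libraries to between 84.2 and 944 CPM at Day4, and it was higher in Day4 replicate 2 than in replicate 1 on both platforms. Genes of extra-embryonic and visceral endoderm were higher in 5 of 8 cases in Direct RNA and in 4 of 8 in cDNA. Their sum was at most 14.3 CPM in Undiff and lay between 208.6 and 1051 CPM at Day4. For mesenchyme and fibroblasts, 6 of 7 genes were higher on both platforms. That sum rose from between 48.5 and 206.6 CPM to between 716.9 and 3881 CPM, and the collagen genes Col1a2 and Col3a1 had no read in any Undiff library. Of the neural genes, 0 of 7 were higher and 2 of 7 were lower on each platform, and their sum went from between 625.1 and 786.7 CPM to between 59.7 and 99.0 CPM. The neural gene Dcx went the other way, with no read in any Undiff library and reads at Day4 on both platforms. The endothelial genes gave 1 higher call of 4 in Direct RNA and 0 in cDNA, with sums of 32.7 to 134.2 CPM over all libraries. For macrophages, Ptprc had no read in any library, and 0 of 4 genes were called in Direct RNA and 1 of 4 was called lower in cDNA. The sum of the 4 went from between 23.1 and 47.4 CPM to between 3.53 and 5.31 CPM, but in cDNA Undiff it came from a single gene, since Ptprc, Adgre1 and Csf1r were at 0. The sums for pluripotent cells, endoderm, mesenchyme, neural cells and macrophages thus moved with the states, whereas the endothelial sums overlapped between the states on both platforms. A sum does not speak for each gene of its list, as Dcx shows. The part of any of these cell types in the members' changes was not tested. In RNA from a mixed sample, fewer cells of a type and less RNA per cell cannot be told apart.

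Differentially expressed genes (DEGs) were called with DESeq2 on each platform, over all genes, where the adjusted p did not exceed 0.05, the change was 2-fold or more (1 on the log2 scale) and the normalized counts averaged 5 or more. All 10 members reached that mean on both platforms. Where states are said below to be apart or not to overlap, this describes the libraries and is not a test. The share of all genes apart in this way was not computed. Anxa3, Anxa6 and S100a10 were apart on both platforms without being called. Between the states, Anxa2 and Anxa5 were higher and S100a6 was lower at Day4 in Direct RNA, and the cDNA libraries gave these 3 calls together with lower Anxa1 and Anxa7. In Direct RNA 2 of 10 members were therefore higher and 1 was lower, whereas 9.54% of the 9646 genes tested were called higher and 7.67% lower. In cDNA 2 members were higher and 3 lower, beside 8.69% and 9.24% of 10271 genes. On both platforms together, 2 members were higher and 1 was lower, where 6.19% and 5.18% of the 8720 genes tested on both were called. The median log2 fold change over the 10 members was 0.27 on each platform, beside all-gene medians of 0.03 for Direct RNA and 0.00 for cDNA. With the total reads as size factors in place of those of DESeq2, the all-gene median went from 0.00 to 0.33 for cDNA and from 0.03 to 0.13 for Direct RNA. The cDNA calls over all genes went from 893 higher and 949 lower to 1263 and 655. The quasi-likelihood test of edgeR called 4 members in Direct RNA, among 33.8% of the genes, and 5 in cDNA, among 32.6%. Its additional call in Direct RNA was Anxa7.

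**Figure D1:**
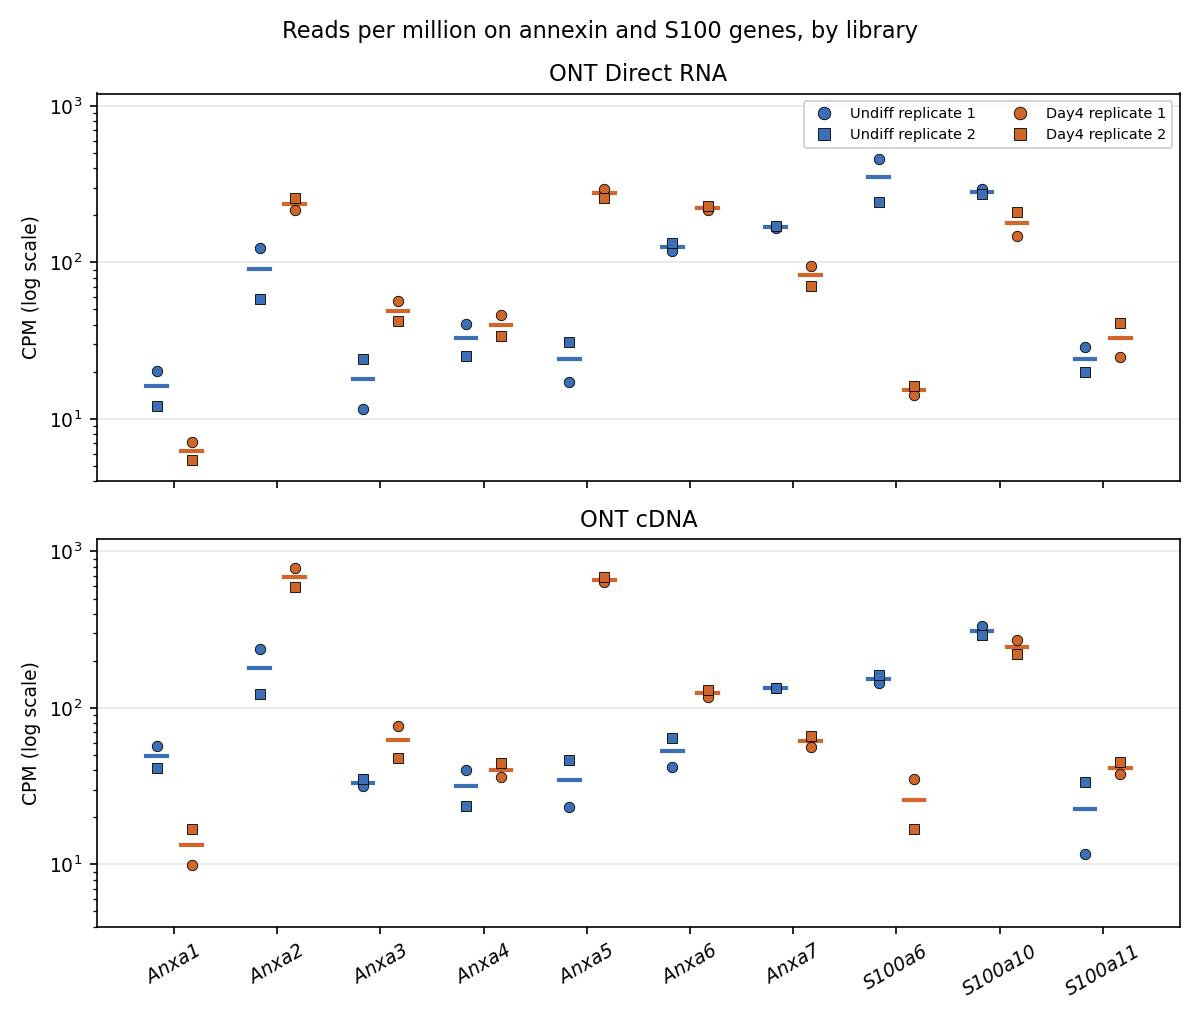
Level of each of the 10 genes in every library, in CPM on a log axis, for ONT Direct RNA (top) and ONT cDNA (bottom). Blue marks Undiff and orange Day4, circles are replicate 1, squares are replicate 2 and bars are the mean of the 2 libraries. Anxa5 and Anxa2 lay higher at Day4 in both panels and S100a6 lower, whereas the libraries of Anxa4 overlapped between the states.

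Anxa5 showed the largest change of the 7 annexins on both platforms. Its protein binds phosphatidylserine and is the reagent commonly used to stain dying cells. The gene (ENSMUSG00000027712.13) lies on chromosome 3 from 36448923 to 36475894 on the minus strand of GRCm38, with 13 exons in its longest coding transcript of 1731 bases. In Direct RNA it had 6 and 28 reads in Undiff replicates 1 and 2, or 17.2 and 30.9 CPM, and 84 and 191 reads at Day4, or 296.3 and 259 CPM. The cDNA libraries held 22 and 97 reads in Undiff (23.2 and 46.4 CPM) and 837 and 1431 at Day4 (635 and 688.9 CPM). Every Day4 library thus lay far above every Undiff library of its platform. Its log2 fold change came to 3.23 with the Direct RNA kit (SE 0.48, adjusted p = 1.6e-09) and to 3.83 with the cDNA kit (SE 0.43, adjusted p = 1.1e-16). When single libraries were left out the call was kept in 4 of 4 fits on either platform, with log2 fold changes between 2.80 and 4.27.

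Anxa2, the partner of S100A10 and a cofactor for plasminogen activation at the cell surface, was also higher at Day4. It spans 69453620 to 69491795 on the plus strand of chromosome 9 (ENSMUSG00000032231.14, 13 exons, longest coding transcript 1447 bases). Direct RNA gave 43 and 53 reads in Undiff, 123.4 and 58.4 CPM, and 61 and 190 at Day4, 215.2 and 257.6 CPM. In cDNA the counts were 226 and 258 in Undiff, 238.2 and 123.5 CPM, and 1027 and 1227 at Day4, 779.1 and 590.7 CPM. The states did not overlap on either platform, but Undiff replicate 1 stood well above replicate 2 with both kits. Log2 fold changes were 1.31 for Direct RNA (SE 0.44, adjusted p = 0.032) and 1.56 for cDNA (SE 0.45, adjusted p = 0.0079). These calls were less stable than those of Anxa5. The Direct RNA call was lost on leaving out any 1 of the 4 libraries, with log2 fold changes of 0.81 to 1.71 and adjusted p-values of 0.085 to 0.90. The cDNA call was lost without cDNA Undiff replicate 2 (1.09, adjusted p = 0.33) and without cDNA Day4 replicate 1 (1.27, adjusted p = 0.31). An antisense gene, Gm16144, overlaps an exon of Anxa2 in GENCODE and has no entry of its own in the count tables, so that cDNA reads from it, if counted without strand, would fall to Anxa2.

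Among the 3 S100 genes, S100a6 changed most. Its protein, calcyclin, is known from proliferating cells and binds the ubiquitin ligase adaptor CACYBP. The gene (ENSMUSG00000001025.8) lies on the plus strand of chromosome 3, from 90612882 to 90624181, in the large cluster of S100 genes, and its longest coding transcript has 3 exons and 731 bases. In Direct RNA its counts were 159 and 222 in Undiff, 456.3 and 244.6 CPM, and only 4 and 12 at Day4, 14.1 and 16.3 CPM. In cDNA they were 136 and 339, 143.4 and 162.3 CPM, against 46 and 35, 34.9 and 16.8 CPM. All Day4 libraries were below all Undiff libraries. The log2 fold change of S100a6 was -4.42 for Direct RNA (SE 0.53, adjusted p = 1.9e-14) and -2.79 for cDNA (SE 0.50, adjusted p = 1.6e-06). Both calls held in 4 of 4 fits without 1 library, in which the log2 fold change ranged from -4.71 to -2.22.

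The stretches of 250 bases before the start sites of these 3 genes, the members that were DEGs in the same direction on both platforms, are shown because they are the windows in which a promoter lies. They are taken from RefSeq on GRCm38.p6, whose table held 7 of the 10 members. Anxa2 lies at chr9:69453433-69453682 (plus strand), Anxa5 at chr3:36475888-36476137 (minus strand) and S100a6 at chr3:90612644-90612893 (plus strand). The start sites are those of RefSeq, and they lie inside the gene bounds that GENCODE gives, so that the end of each window, in Anxa2 with the TATA box and the GC boxes at -48 and -24, falls within the annotated gene. Capitals mark matches on either strand to 4 short motifs. The letters searched for the TATA box were TATAAA. Those for the GC box, which binds Sp1, were GGGCGG. An AP-1 site was taken as TGANTCA, where N is any base. The half-site of nuclear receptors, the class to which RA receptors belong, was taken as AGGTCA.
Anxa2: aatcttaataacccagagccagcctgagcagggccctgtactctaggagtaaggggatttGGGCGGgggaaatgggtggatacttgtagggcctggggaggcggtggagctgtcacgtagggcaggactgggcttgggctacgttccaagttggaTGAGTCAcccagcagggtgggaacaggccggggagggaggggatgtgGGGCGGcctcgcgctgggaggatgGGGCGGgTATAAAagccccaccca
Anxa5: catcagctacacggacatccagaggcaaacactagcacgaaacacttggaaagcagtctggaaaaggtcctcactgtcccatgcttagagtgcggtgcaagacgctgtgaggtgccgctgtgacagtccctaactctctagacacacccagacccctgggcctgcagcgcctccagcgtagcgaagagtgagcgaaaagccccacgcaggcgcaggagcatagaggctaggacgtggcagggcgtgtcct
S100a6: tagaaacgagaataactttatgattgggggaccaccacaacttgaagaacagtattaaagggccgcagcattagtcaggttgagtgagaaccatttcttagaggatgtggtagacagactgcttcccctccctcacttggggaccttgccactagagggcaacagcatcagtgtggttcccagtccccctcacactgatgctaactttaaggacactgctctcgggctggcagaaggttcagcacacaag
The Anxa2 window held a TATA box starting 17 bases before the start site, GC boxes at -190, -48 and -24 and an AP-1 site at -95, and no 2 of these matches overlapped. None of these letters were found in the windows of Anxa5 and S100a6. Of all 32851 windows of this length, 12.4% held a TATA box, 32.7% a GC box, 6.75% an AP-1 site and 14% a half-site. The Anxa5 window had 58.8% GC and 13 CG dinucleotides, Anxa2 62.4% and 9, and S100a6 50% and 3, where the medians of all windows were 52.4% and 6.

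**Figure D2:**
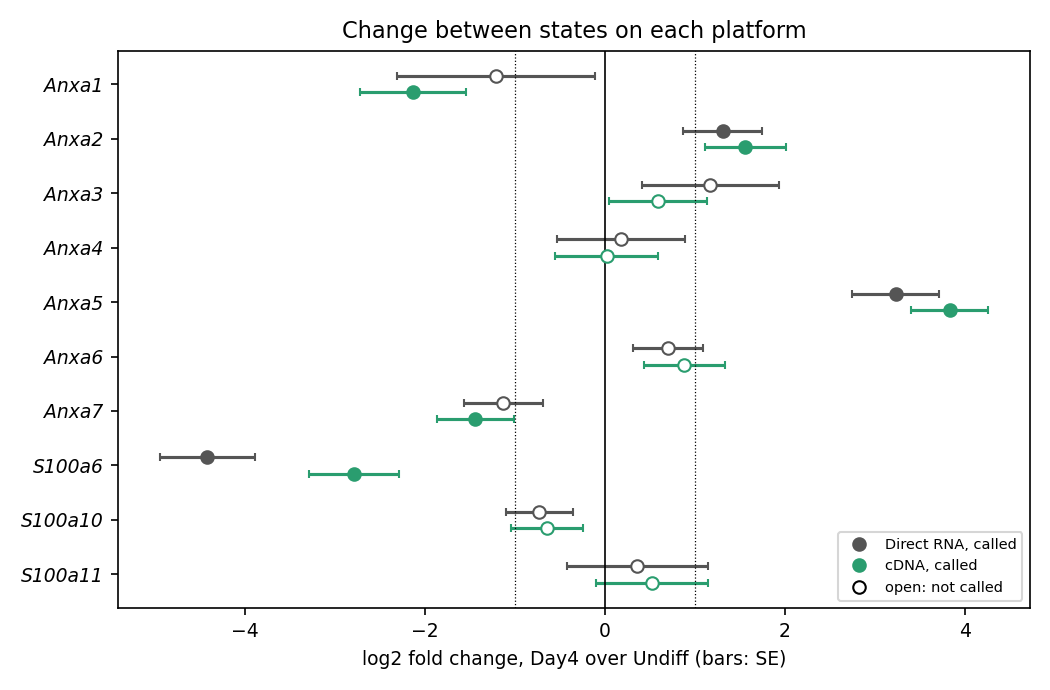
Log2 fold change of each gene between the states (Day4 over Undiff) with its SE from DESeq2, for Direct RNA (grey) and cDNA (green). Filled circles are called DEGs, open circles are not, and dotted lines mark a log2 fold change of 1 in size. Anxa5 reached 3.23 and 3.83 and S100a6 -4.42 and -2.79, while both values of S100a10 lay between -1 and 0.

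Of the remaining annexins, Anxa1 and Anxa7 were called lower in cDNA and not in Direct RNA, a contrast that by itself does not show a difference between platforms. Anxa1, whose protein acts on formyl peptide receptors to limit inflammation, lies on chromosome 19 from 20373428 to 20390944 on the minus strand (ENSMUSG00000024659.15, 13 exons, 1674 bases). It was sparse in Direct RNA, with 7 and 11 reads in Undiff (20.1 and 12.1 CPM) and 2 and 4 at Day4 (7.06 and 5.42 CPM), with a 95% Wilson interval of 1.93 to 25.7 CPM for the 2 reads. In cDNA it had 54 and 86 reads in Undiff (56.9 and 41.2 CPM) and 13 and 35 at Day4 (9.86 and 16.8 CPM). On each platform the Day4 levels were the lower ones. The log2 fold change in cDNA was -2.13 (SE 0.59, adjusted p = 0.0048), and that in Direct RNA was -1.21 (SE 1.10, adjusted p = 0.66). The cDNA call was lost without any 1 of the 4 cDNA libraries, with values of -2.36 to -1.77 and adjusted p-values of 0.066 to 0.24.

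Anxa7 encodes synexin, an annexin first studied in the fusion of secretory granules. It is located on the minus strand of chromosome 14 between 20455260 and 20480133 (ENSMUSG00000021814.17, 14 exons, 2904 bases). Direct RNA counts were 58 and 155 in Undiff, 166.4 and 170.8 CPM, and 27 and 52 at Day4, 95.3 and 70.5 CPM. The cDNA counts were 128 and 280, 134.9 and 134.1 CPM, and 74 and 138, 56.1 and 66.4 CPM. Undiff replicates were almost equal in CPM on both platforms, and the Day4 libraries lay below them. Its log2 fold change was -1.13 for Direct RNA (SE 0.44, adjusted p = 0.079) and -1.44 for cDNA (SE 0.43, adjusted p = 0.011), and edgeR gave an adjusted p of 0.0082 in Direct RNA. The cDNA call was lost without any 1 library at log2 fold changes of -1.51 to -1.33 (adjusted p between 0.14 and 0.28) and with total reads as size factors (log2 fold change -1.11, adjusted p = 0.074).

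Anxa3, Anxa4 and Anxa6 passed no test between the states. Anxa6, which binds membranes of the endocytic pathway, lies on chromosome 11 from 54979108 to 55033445 (minus strand, ENSMUSG00000018340.13) and has the most exons of the 10 members, 26, in a transcript of 2489 bases. It stood at 117.7 and 133.3 CPM in Direct RNA Undiff and at 215.2 and 230.5 CPM at Day4, and at 42.2 and 64.2 against 118.3 and 130.5 CPM in cDNA. Day4 was above Undiff in every library, yet the log2 fold changes of 0.70 (SE 0.39, adjusted p = 0.31) and 0.88 (SE 0.45, adjusted p = 0.25) missed the thresholds. Their 95% intervals, -0.07 to 1.47 and -0.01 to 1.77, include changes above the fold that was required. Anxa3 (ENSMUSG00000029484.12, chromosome 5, 96793339 to 96845966, plus strand, 13 exons, 1595 bases) had 11.5 and 24.2 CPM in Direct RNA Undiff and 56.4 and 42 CPM at Day4. In cDNA it had 31.6 and 35 CPM in Undiff and 76.6 and 48.1 CPM at Day4. Here too the Day4 libraries were the higher ones, from counts of 4 to 101 reads, with log2 fold changes of 1.17 (SE 0.76, adjusted p = 0.43) and 0.59 (SE 0.54, adjusted p = 0.67).

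Anxa4, an annexin prominent in epithelia, was the member with the least difference between states. The gene (ENSMUSG00000029994.17) runs from 86736840 to 86793584 on the minus strand of chromosome 6, with 12 exons and 2030 bases. Direct RNA gave 40.2 and 25.3 CPM in Undiff and 45.9 and 33.9 CPM at Day4, and cDNA gave 40.1 and 23.5 against 36.4 and 44.3 CPM. The states overlapped on both platforms. Its log2 fold changes were 0.18 (95% interval -1.21 to 1.57, adjusted p = 0.93) and 0.02 (-1.09 to 1.13, adjusted p = 0.99), so changes of up to about the threshold in either direction were not detectable with 2 libraries a group, and the sign of either value changed when single Undiff libraries were left out. Exons of Anxa3 and Anxa4 also overlap genes that the count tables do not list, Gm42603 on the same strand and Gm44036 on the opposite strand.

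S100a10 and S100a11, which are neighbours on chromosome 3 away from the main S100 cluster, passed no test between the states either. S100a10 encodes p11, a member of the family that has lost calcium binding and is stabilised by ANXA2. The gene (ENSMUSG00000041959.14) spans 93555080 to 93564643 on the plus strand, with 3 exons and 685 bases. Direct RNA Undiff had 102 and 248 reads, 292.7 and 273.3 CPM, and Day4 had 42 and 155, 148.2 and 210.1 CPM. In cDNA there were 315 and 609 reads, 332 and 291.6 CPM, against 359 and 459, 272.3 and 221 CPM. Day4 levels were below Undiff on each platform by a small margin. The log2 fold changes were -0.73 (SE 0.37, adjusted p = 0.23) and -0.64 (SE 0.40, adjusted p = 0.40), with 95% intervals from -1.45 to -0.01 and from -1.43 to 0.14.

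S100a11, the partner of ANXA1, lies from 93520488 to 93526287 on the plus strand (ENSMUSG00000027907.4, 3 exons, 511 bases). Its counts were 10, 18, 7 and 30 in the Direct RNA libraries (28.7 and 19.8 CPM in Undiff, 24.7 and 40.7 at Day4). They were 11, 70, 50 and 94 in cDNA (11.6 and 33.5 CPM in Undiff, 37.9 and 45.3 at Day4). The states overlapped in Direct RNA but not in cDNA, where the Undiff replicates lay far apart. Log2 fold changes of 0.36 (SE 0.78, adjusted p = 0.93) and 0.52 (SE 0.62, adjusted p = 0.80) were within their SE, and each turned negative without 1 library, to -0.06 without Direct RNA Day4 replicate 2 and to -0.02 without cDNA Undiff replicate 1. A processed pseudogene, S100a11-ps on chromosome 12, has no entry in the count tables, and reads that could align to either copy make the level of S100a11 uncertain.

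The ANXA2 and S100A10 proteins assemble with each other, so the balance of their transcripts was followed within each library, where it does not depend on the scaling. S100a10 made up 70.3% of the reads on the pair in Direct RNA Undiff replicate 1 (102 of 145 reads, 95% Wilson interval 62.5% to 77.2%) and 82.4% in replicate 2 (77.7% to 86.3%). At Day4 it made up 40.8% (31.8% to 50.4%) and 44.9% (39.8% to 50.2%). The cDNA libraries went from 58.2% (54.0% to 62.3%) and 70.2% (67.1% to 73.2%) in Undiff to 25.9% (23.7% to 28.3%) and 27.2% (25.2% to 29.4%) at Day4. By number of reads, S100a10 thus exceeded Anxa2 in all 4 Undiff libraries and was exceeded by it in all 4 Day4 libraries, although the intervals of the Direct RNA Day4 libraries reach just past 50%. Division by transcript length, described below, raises the shorter S100a10 (685 bases) against Anxa2 (1447 bases). On that scale S100a10 stayed above Anxa2 in both Direct RNA Day4 libraries (216.3 and 306.8 against 148.7 and 178 CPM per kilobase). On each platform the states did not overlap. An exact two-sided permutation test of 2 against 2 libraries cannot give a p below 0.333, so no test is given for the share. The intervals and these limits cover counting error only, and in the cDNA-PCR libraries several reads can stem from 1 molecule.

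**Figure D3:**
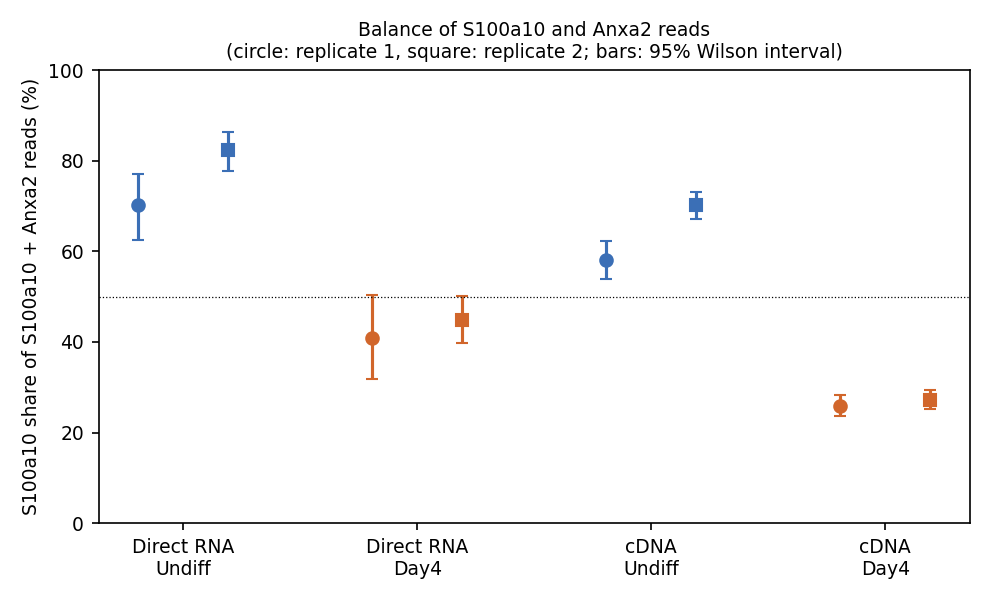
Share of S100a10 among the reads on S100a10 and Anxa2 in each library, in percent, with its 95% Wilson interval. Blue is Undiff, orange is Day4, and the dotted line marks equal read numbers. The Undiff libraries sit between 58.2% and 82.4% and the Day4 libraries between 25.9% and 44.9%.

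The 7 annexins summed to more reads at Day4 and the 3 S100 genes to fewer, sums that were carried by a few members. The summed level of the 7 annexins was 496.5 and 455.1 CPM in Direct RNA Undiff and 931.3 and 898.9 CPM at Day4, and in cDNA it was 567.1 and 467.8 against 1712 and 1586 CPM. That of the 3 S100 genes was 777.7 and 537.7 CPM against 187 and 267.1 CPM in Direct RNA, and 487 and 487.4 CPM against 345.2 and 283.1 CPM in cDNA. In all 4 cases the states were apart, which with 2 libraries per state is a description and not a test. Anxa2 and Anxa5 together made up between 19.6% and 46.1% of the annexin reads in Undiff and between 54.9% and 82.6% at Day4, while the Day4 levels of Anxa1 and Anxa7 lay below those of Undiff on each platform. Anxa5 by itself went from between 3.47% and 9.93% of the annexin reads in Undiff to between 28.8% and 43.4% at Day4.

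Levels of different genes were compared per kilobase of the longest coding transcript, and the order in plain CPM is given beside it. A nanopore read is counted once whatever its length. Division by length therefore raises the short S100 transcripts (511 to 731 bases) against those of the annexins (1447 to 2904 bases), and distances between the 2 families are wider on that scale than in CPM. In Direct RNA Undiff, S100a6 (479.4 ± 204.7 CPM per kilobase, SD, n = 2) and S100a10 (413.1 ± 20.1) stood well above all others, overlapped each other, and were followed by Anxa2 (62.8 ± 31.8) and Anxa7 (58.1 ± 1.06). At Direct RNA Day4 the order began with S100a10 (261.5 ± 64.0), followed by Anxa2 (163.4 ± 20.7) and Anxa5 (160.4 ± 15.3), which overlapped each other. S100a6 had moved from the first to the eighth place, at 20.8 ± 2.09. In cDNA Undiff the order was S100a10 (455.2 ± 41.8), S100a6 (209.1 ± 18.3) and Anxa2 (125 ± 56.1), with no overlap between neighbours. At cDNA Day4 it was Anxa2 (473.3 ± 92.1), then Anxa5 (382.4 ± 22.0) and S100a10 (360.1 ± 53.0), of which the last 2 overlapped. Anxa1 had the lowest level per kilobase in 3 groups, from 3.73 ± 0.69 in Direct RNA Day4 to 9.62 ± 3.37 in Direct RNA Undiff, and Anxa4 (15.6 ± 5.78) had it in cDNA Undiff. Most neighbours in the lower ranks overlapped in Undiff. In plain CPM, without division by length, the order of the group means was different. It began with S100a6 (350.5), S100a10 (283) and Anxa7 (168.6) in Direct RNA Undiff and with Anxa5 (277.6), Anxa2 (236.4) and Anxa6 (222.8) at Day4, followed by S100a10 (179.2). In cDNA it began with S100a10 (311.8), Anxa2 (180.9) and S100a6 (152.8) in Undiff and with Anxa2 (684.9), Anxa5 (661.9) and S100a10 (246.7) at Day4. The lowest mean CPM was that of S100a11 (22.6) in cDNA Undiff and that of Anxa1 in the other 3 groups.

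Anxa1, Anxa2, Anxa3, Anxa5 and S100a10 were higher in cDNA than in Direct RNA when both states were fitted together. In the fit of all 8 libraries by DESeq2, with the state kept as a covariate, 5 of 10 members were higher in cDNA and 0 were lower, beside 24.7% of 10426 genes called higher and 26.6% called lower. The values were Anxa1 (log2 fold change 2.19, SE 0.47, adjusted p = 1.6e-05), Anxa2 (2.03, SE 0.33, adjusted p = 7.8e-09), Anxa5 (1.65, SE 0.26, adjusted p = 3.8e-09), Anxa3 (1.28, SE 0.36, adjusted p = 0.0019) and S100a10 (1.04, SE 0.23, adjusted p = 3.4e-05). S100a11 (0.85, adjusted p = 0.069) and Anxa4 (0.76, adjusted p = 0.074) had values above 0 that missed the thresholds. Anxa7 (0.40), S100a6 (0.35) and Anxa6 (-0.29) also passed no threshold, and by edgeR the members called were the same 5. These values depend on how the platforms are scaled. With total reads as size factors the median of all genes went from -0.02 to -0.77, and all-gene calls went from 2572 higher and 2772 lower to 1132 and 4394. Under that scaling Anxa1 (1.44) and Anxa2 (1.28) stayed called, Anxa5 (0.94), Anxa3 (0.55) and S100a10 (0.28) did not, Anxa6 was called lower (-1.01), and Anxa7 (-0.35) and S100a6 (-0.42) changed sign. The call of S100a10 was also lost without Direct RNA Day4 replicate 1 (0.93) or without cDNA Day4 replicate 1 (0.94), and S100a11 was called without cDNA Undiff replicate 1 (1.09).

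**Figure D4:**
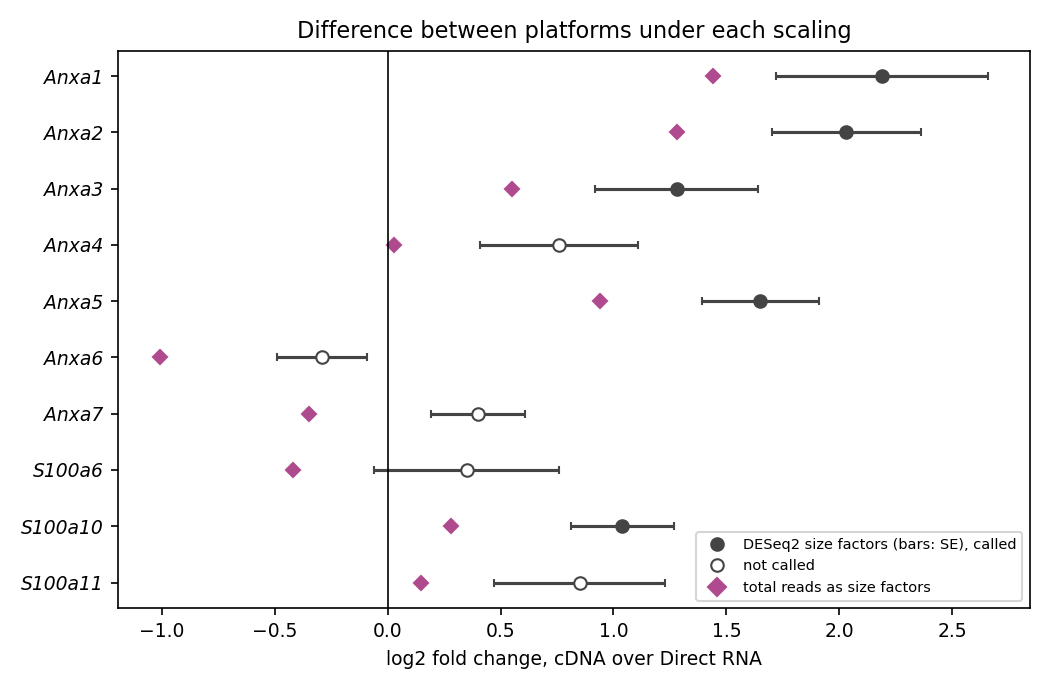
Log2 fold change of each gene between the platforms (cDNA over Direct RNA), with both states fitted together. Circles with SE bars use the size factors of DESeq2 (filled where called) and diamonds use the total reads. All 10 genes move to lower values under the total reads, where Anxa7 and S100a6 fall below 0.

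The change between states of a member was also compared between the platforms. In the DESeq2 test of the interaction, 0 of 10 members passed an adjusted p of 0.05, which 0.0116% of the 17267 genes fitted did, and edgeR called 0 members as well. Of all 17267 genes fitted, with no minimum mean count, 0.932% had an unadjusted p under 0.05. All 10 members reached a mean count of 5, so this share is not a like measure for them. Among the members there was 1 with such an unadjusted p, S100a6. Its fall was smaller in cDNA than in Direct RNA by 1.70 on the log2 scale (SE 0.78, unadjusted p = 0.030, adjusted p = 1). Without cDNA Day4 replicate 1 this value was 0.89, the lowest of the fits that left out 1 library, and the highest was 2.25. The other 9 members had interaction values from -0.79 (Anxa1, SE 1.15) to 0.59 (Anxa5, SE 0.61), all smaller than their SE, and such SEs leave room for differences of more than 1 on the log2 scale.

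Related genes from the same families and processes were read from the same fits, with the shares of all genes called given above (9.54% higher and 7.67% lower for Direct RNA, 8.69% and 9.24% for cDNA). Of 5 other annexins, 1 reached the mean count of 5, Anxa11, whose protein binds S100A6 and PDCD6. Anxa11 was at 106.2 and 90.4 CPM in Direct RNA Undiff and at 10.6 and 21.7 CPM at Day4, and at 25.3 and 47.9 against 4.55 and 5.78 CPM in cDNA. It was lower on both platforms, with log2 fold changes of -2.46 (SE 0.64, adjusted p = 0.0023) and -2.98 (SE 0.69, adjusted p = 0.00041), like S100a6 and unlike Anxa5 and Anxa2. Of 13 other S100 genes, 4 reached that mean, of which 1 was called in Direct RNA and 3 in cDNA. S100g, which encodes the calcium carrier calbindin-D9k, was higher on both. Its log2 fold changes were 4.3 (SE 1.3, adjusted p = 0.012) for Direct RNA and 5.42 (SE 1.08, adjusted p = 2.2e-05) for cDNA. It had 0 reads in both Direct RNA Undiff libraries and 28 in those of Day4, at least 4.1-fold above a floor of 3 reads per library, and 1 read against 138 in cDNA, a ratio of depth-scaled summed reads of 123.4 with a 95% counting interval of 21.8 to 4911. In cDNA alone, S100a1 was called higher (2.49, adjusted p = 0.011) and S100a13 lower (-1.96, adjusted p = 0.002).

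Of 18 genes for binding partners and proteins of the same processes, 17 were listed in the tables, and 12 in Direct RNA and 10 in cDNA reached the mean count of 5. In Direct RNA 1 of these was higher and 2 were lower, and in cDNA 2 were higher and 1 was lower. Ratios of summed reads, as given above for S100g and below for Plat, leave out the spread between replicates. Plat, the tissue plasminogen activator that the ANXA2 and S100A10 complex binds at the cell surface, rose on both platforms. Its log2 fold changes were 6.26 (SE 0.85, adjusted p = 2.7e-11) for Direct RNA and 7.55 (SE 1.12, adjusted p = 1.9e-09) for cDNA. Its Direct RNA reads went from 2 in Undiff to 230 at Day4, a ratio of 141.5 with a 95% counting interval of 38.7 to 1175, and in cDNA from 0 to 364, at least 45.4-fold above the floor of 3 reads per library. Cacybp, the partner of S100A6, fell from 958.5 and 1073 to 416.3 and 413.5 CPM in Direct RNA and from 831.7 and 1512 to 565.2 and 691.8 CPM in cDNA. Its log2 fold changes were -1.39 (SE 0.28, adjusted p = 2.2e-05) and -1.19 (SE 0.39, adjusted p = 0.024). Sugt1, a co-chaperone that binds S100A6, was lower in Direct RNA (-1.13, adjusted p = 0.015), and Sri, which encodes sorcin, a partner of ANXA7, was higher in cDNA (1.45, adjusted p = 0.0081). The medians over the genes of this list that reached the mean count were -0.54 and -0.69.

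The pattern of Anxa2 and that of S100a10 were then compared with those of 4754 genes with a mean of at least 20 CPM on each platform. Likeness was the root mean square difference of log2(CPM + 1) over the 8 libraries after centring within each platform, and it describes these libraries without a test. Nearest to Anxa2 were Dctn6 (0.143), Carkd (0.179) and Cnppd1 (0.18). Of the members, 9 were compared, since Anxa1 was below 20 CPM in Direct RNA. Among them Anxa6 was nearest to it at rank 602, and its protein partner S100a10 had rank 2999, with a difference of 1.16. Nearest to S100a10 were Tbcb (0.0868), Mrpl51 (0.0899) and Coa7 (0.09). Anxa7 was the member most like S100a10, at rank 1281, and Anxa2 had rank 4102. The genes of this pair were therefore not near each other in level pattern in these libraries.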

How the data were processed

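The authors aligned nanopore reads to mm10 with minimap2, without secondary alignments, and counted reads per gene with HTSeq (htseq-count) on the UCSC annotation of iGenomes. The deposited values are these raw read counts per gene symbol, without normalization. Direct RNA was counted by strand, and the strand setting for cDNA is not given in the sources used here. The 5 counters of reads given to no gene, between 38.1% and 61.7% of a library's total, stayed out of all fits. Polyadenylated RNA input was 500 ng with the Direct RNA kit and 50 ng with the cDNA-PCR kit.

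Libraries were grouped by their labels. States were compared on each platform with the Wald test of DESeq2 1.42.0 in R 4.3.3, with shrunken fold changes, the Cook's cutoff and independent filtering off, as in the study's methods, and Benjamini-Hochberg adjustment over all genes. The platform fit used all 8 libraries with state as covariate, and the interaction fit had no shrinkage. Alternatives were edgeR 4.0.16 (quasi-likelihood, TMM), no shrinkage, TMM factors, total reads as size factors, a filter of 10 reads in 2 libraries, a replicate block and leaving out each library. The fits were tested on simulated data. Figures were drawn with matplotlib 3.10.9.

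The 10 members and all gene lists were chosen with earlier results of these data known. All members are named. Of the related genes, those called in one direction on both platforms were named, and of genes with a similar pattern the 3 nearest to Anxa2 and to S100a10. S100a1, S100a13, Sugt1 and Sri fall outside that rule and were named after their values were seen. GENCODE vM21 gave coordinates and lengths on GRCm38, another name for mm10. Short-read libraries were not analysed here.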

Additional observations from a re-analysis of the deposited data

How the results depend on the processing

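With the total reads as size factors, the platform comparison gave 2 members higher and 1 lower in place of 5 and 0, Anxa7 (-0.35) and S100a6 (-0.42) changed sign, and so did the interaction value of Anxa4 (0.07). By edgeR 2 members were lower in Direct RNA in place of 1, and with a filter of 10 reads in 2 libraries Anxa4 was at -0.01 in cDNA and Anxa1 had no Direct RNA value. The replicate block left 1 member higher in Direct RNA, Anxa5, since Anxa2 (1.31) had an adjusted p of 0.15, and changed no other call of a member. Replicate numbers share no stated culture, and the correlation of replicate differences over 1395 genes was 0.214 in Direct RNA and 0.5 in cDNA between states, and 0.124 in Undiff and -0.416 at Day4 between platforms. For the platform comparison, a block with the Day4 numbers crossed, chosen after seeing the data, called 5 members higher and 0 lower. With the DESeq2 size factors of all 8 libraries in place of total reads, 22 group levels of members moved by their SD or more and 18 did not. S100a6 went from 350.5 CPM to 268.5 in Direct RNA Undiff and from 152.8 CPM to 215.4 in cDNA Undiff. Over all genes, calls between states went from 1660 (DESeq2) to 3257 (edgeR) and 843 (replicate block) in Direct RNA, and from 1842 to 3348 (edgeR) in cDNA. Without 1 library they were 393 to 797 in Direct RNA and 709 to 1020 in cDNA.

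Leaving out each library in turn gave 1 member higher in Direct RNA in each fit, 1 to 2 higher in cDNA and 1 lower in cDNA in each fit. Values whose sign turned in this way ranged between states from -0.11 to 0.35 (Anxa4) and -0.06 to 0.63 (S100a11) in Direct RNA and from -0.39 to 0.42 (Anxa4) and -0.02 to 1.31 (S100a11) in cDNA, between platforms from -0.02 to 0.68 (S100a6), and for the interaction from -0.29 to 0.92 (Anxa2), -0.69 to 0.34 (Anxa4), -0.02 to 1.03 (Anxa5), -0.0016 to 0.35 (Anxa6), -0.27 to 0.41 (S100a10) and -0.35 to 0.93 (S100a11). None of these was called. The causes were not tested. Counts were low in Direct RNA libraries for Anxa1 (2 to 11 reads), Anxa3 (4 to 31) and S100a11 (7 to 30), and for S100a6 at Day4 (4 and 12).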
